A study of Homo sapiens with 8 samples.

Results

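Transcript levels of 10 human genes of the interleukin-1 family and its receptors were followed on 8 arrays. The 10 genes are 5 ligands (*IL1A*, *IL1B*, *IL33*, *IL36G* and *IL18*), the receptor antagonist *IL1RN*, and 4 receptor genes (*IL1R1*, *IL1RAP*, *IL1R2* and *IL1RL1*). They were chosen by name, with earlier results of these data known, as all probe sets annotated to one of these symbols alone. They make up 10 of the 19775 genes that the array measures with single-gene probe sets. The cells were A549, an established human lung adenocarcinoma line, grown either as monolayers (2D) or as spheroids (3D) that were first aggregated in hanging droplets. Each culture type received vehicle (control) or tumor necrosis factor (TNF) at 10 ng/ml together with transforming growth factor beta (TGFβ) at 2 ng/ml (treated), in 2 rounds of 48 h each, a regimen meant to induce the epithelial-mesenchymal transition. The 4 groups (2D control, 2D treated, 3D control and 3D treated) have 2 arrays each. All groups come from 1 cell line, both cytokines were always given together, and 2D and 3D cultures differ in handling as well as in shape, so TNF cannot be told apart from TGFβ, nor shape from handling. The methods speak of technical duplicates and the deposited design of biological replicates, so the p-values measure the spread between these arrays only.

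Interleukin-1 alpha and interleukin-1 beta bind the receptor encoded by *IL1R1*, which then recruits the accessory protein encoded by *IL1RAP* and signals through the adaptor MYD88 and IRAK kinases to NF-κB. The antagonist IL1RN occupies the same receptor without signalling, and IL1R2 is a decoy that binds the ligand without signalling. Interleukin-33 is a nuclear alarmin of epithelial and endothelial cells that signals through IL1RL1 with the same accessory protein.

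Values are log2 expression values made by the authors with GCRMA, which corrects for background binding and condenses the probes of a set into 1 number. The lowest value on any array is 2.23 and array medians lie between 2.43 and 2.50. A gene is called near background in a group where it lies below the array median on both arrays, and such a value is only an upper bound on its level. Groups were compared by limma across all probe sets, and a change was called at an adjusted p under 0.05. Counts at an unadjusted p under 0.05 are given without the share of all genes at that level, and nothing is concluded from them. In bulk cultures a lower value cannot tell fewer cells expressing a gene from less RNA per cell. The 10 genes have 22 probe sets, and the brightest one on average represents its gene. Of the 22 probe sets, 11 did not exceed 3 on any array.

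Promoters are shown of the 3 ligand genes that rose in treated spheroids and of *IL1R2*, 1 of the 2 receptor genes that fell there. Marked bases match a binding motif of AP-1 or NF-κB only. Matches to the SMAD motif, counted below, are not marked. The other receptor gene that fell, *IL1R1*, has no NF-κB or AP-1 match in any of its windows, and these are not shown. Each sequence holds 250 bases ending just before a transcription start, written 5′ to 3′ on the strand of the gene, from RefSeq on GRCh38.p14. They lie at chr2:112784494-112784743 (minus strand, the outer of both *IL1A* starts), chr2:112836780-112837029 (minus strand, *IL1B*), chr9:6214899-6215148 (plus strand, the outer *IL33* start) and chr2:101991710-101991959 (plus strand, the outer *IL1R2* start). Capitals mark a match on either strand to the AP-1 motif TGANTCA in *IL1A* and to the 10-letter NF-κB consensus in *IL1R2*, and there are none in the *IL1B* and *IL33* windows.
IL1A: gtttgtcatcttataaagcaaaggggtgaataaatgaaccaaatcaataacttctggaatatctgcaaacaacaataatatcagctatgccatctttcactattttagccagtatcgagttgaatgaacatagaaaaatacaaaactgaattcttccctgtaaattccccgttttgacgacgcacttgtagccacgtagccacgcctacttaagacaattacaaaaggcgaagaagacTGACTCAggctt
IL1B: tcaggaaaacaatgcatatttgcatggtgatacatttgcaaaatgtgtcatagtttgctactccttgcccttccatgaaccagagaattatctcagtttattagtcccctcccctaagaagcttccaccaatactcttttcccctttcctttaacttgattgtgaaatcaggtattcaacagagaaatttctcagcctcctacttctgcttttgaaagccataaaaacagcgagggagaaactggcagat
IL33: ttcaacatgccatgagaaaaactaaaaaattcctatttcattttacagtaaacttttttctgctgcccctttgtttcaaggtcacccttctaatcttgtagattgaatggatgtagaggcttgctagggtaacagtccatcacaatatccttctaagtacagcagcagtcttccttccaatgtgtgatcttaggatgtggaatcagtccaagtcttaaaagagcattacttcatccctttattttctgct
IL1R2: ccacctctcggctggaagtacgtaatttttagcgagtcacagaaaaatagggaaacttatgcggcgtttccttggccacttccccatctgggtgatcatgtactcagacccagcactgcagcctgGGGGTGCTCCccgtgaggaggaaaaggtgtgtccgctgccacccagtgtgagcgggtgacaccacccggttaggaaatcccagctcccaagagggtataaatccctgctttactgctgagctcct
RefSeq promoters were at hand for 9 of the 10 genes, all but *IL18*, in 18 windows of this length. Windows of 1 gene can overlap. The NF-κB consensus matched 1 of the 18 windows, of *IL1R2*, beside 9.96% of all 35116 promoter windows. TGANTCA matched 4 of the 18, of *IL1A*, *IL1RN* and *IL1RL1*, beside 6.57% of all windows. The SMAD motif CAGAC matched 7 of the 18, of *IL1RN*, *IL33*, *IL1R1* and *IL1R2*, beside 38.0% of all windows. In *IL1A* the match in the window shown lies 12 to 6 bases before the start (−12 to −6). The overlapping window of the inner start holds the same site at −105 to −99 and a further match at −55 to −49. That shared site is thus counted in both *IL1A* windows. In *IL1R2* the NF-κB match lies at −125 to −116, and an unmarked SMAD match lies at −146 to −142. These matches describe letters only, and binding was not measured on these arrays.

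In treated spheroids, the genes for interleukin-1 alpha, interleukin-1 beta and interleukin-33 rose, and the genes for the signalling receptor *IL1R1* and the decoy receptor *IL1R2* fell. *IL1A* was 106-fold higher, *IL33* at least 58.3-fold higher and *IL1B* 7.45-fold higher than in control spheroids, whereas *IL1R1* was 3.86-fold and *IL1R2* 1.63-fold lower. Thus 3 of 10 genes were called higher, where 5.53% of all genes were, and 2 of 10 lower, where 10.8% of all genes were. Because the 10 genes were chosen with earlier results known, these and later counts beside such shares are descriptions, not tests. *IL18*, *IL36G*, *IL1RN*, *IL1RL1* and *IL1RAP* did not pass. When only the 4 spheroid arrays were fitted, the log2 fold-changes stayed as they were and none of the 5 calls held (limma adjusted p 0.0659 to 0.139).

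**Figure D1:**
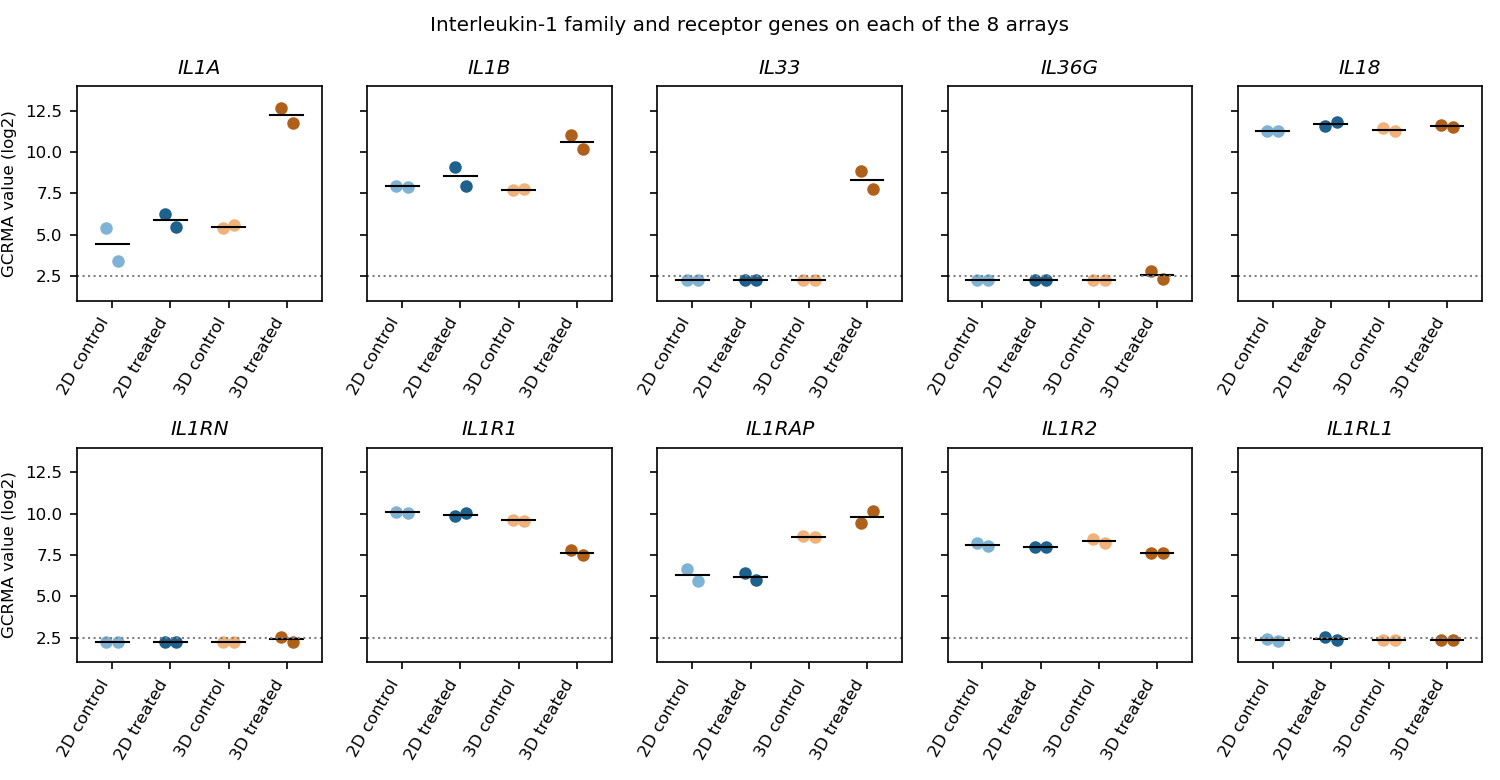
Deposited log2 GCRMA value of each gene (its brightest probe set) on each array, by group. Points are the 2 arrays per group, the bar is the group mean and the dotted line is the highest array median. *IL1A*, *IL1B* and *IL33* are highest on both treated 3D arrays and *IL1R1* is lowest there, while *IL36G*, *IL1RN* and *IL1RL1* lie at or just above background on all arrays.

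*IL1A* encodes interleukin-1 alpha, which acts as a cytokine and, in its precursor form, in the nucleus. It was at 12.67 and 11.77 on the treated 3D arrays and at 5.42 and 5.57 on the control 3D arrays. In monolayers it was at 6.26 and 5.46 with treatment and at 5.43 and 3.43 without. Both treated spheroid arrays stood above all others, and the control monolayers were the most spread (SD 1.41, n = 2). The log2 fold-change in spheroids was 6.72 (SE 0.79, 95% interval 4.59 to 8.86, limma adjusted p = 0.0157). This call was lost without either control or either treated 3D array, with an adjusted p of up to 0.0899. The other *IL1A* probe set was between 2.36 and 2.61 on every array and showed no such difference, and which of its transcripts either probe set reads was not examined.

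*IL1B* encodes interleukin-1 beta, the secreted ligand that is matured by caspase-1. It was at 11.06 and 10.18 on the treated and 7.71 and 7.74 on the control 3D arrays. In monolayers it was at 9.12 and 7.95 with treatment and at 7.97 and 7.87 without. Treated spheroids were again above every other array, and the first treated monolayer array alone stood clear of the other 5. The log2 fold-change in spheroids was 2.90 (SE 0.50, 95% interval 1.56 to 4.23, limma adjusted p = 0.0369), and the second *IL1B* probe set gave 2.98 (adjusted p = 0.0279). The call was kept only in the fits that left out a treated 2D array, and leaving out any of the other 6 arrays ended it, with an adjusted p of up to 0.164.

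*IL33* was at 8.84 and 7.76 on the treated 3D arrays. On the other 6 arrays it lay between 2.23 and 2.25, near background in all 3 groups. Because the control spheroids give only an upper bound, the change is stated as at least 58.3-fold, or at least 40.2-fold and 84.8-fold when the first or the second treated array was left out. The limma adjusted p was 0.00434, and 0.081 when only the spheroid arrays were fitted. Both rest on the spread of treated spheroids (SD 0.76) pooled with that of groups near background (SD at most 0.01). This pooled spread understates that of treated spheroids, so both p-values are likely too small. The 6 fits that kept both treated 3D arrays and left out another therefore do not test the stability of the call. The other 2 fits say nothing on stability either, since their spread for *IL33* comes only from arrays at the floor. The receptor of interleukin-33, *IL1RL1*, lay between 2.31 and 2.51 on its main probe set and its other 3 probe sets lay near the floor, so no response of this receptor gene was detectable on these arrays.

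The remaining ligand genes and the antagonist did not pass. *IL18*, whose product is matured by caspase-1 and acts through a receptor of the same family, was well above background in every group, from 11.25 to 11.81. Its log2 difference in spheroids was 0.21 (95% interval −0.10 to 0.52, limma adjusted p = 0.478). *IL36G*, an epithelial ligand of the interleukin-36 receptor, was at 2.23 on 6 arrays and at 2.83 and 2.33 on the treated 3D arrays (adjusted p = 0.412). *IL1RN* was at 2.23 on all arrays but the first treated 3D array, where it was at 2.55 (adjusted p = 0.536), and its 4 other probe sets lay at the floor. No change of the antagonist transcript was therefore detectable beside the rise of *IL1A* and *IL1B*.

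Among the receptor genes, *IL1R1* was at 7.81 and 7.48 on the treated and at 9.64 and 9.54 on the control 3D arrays. The monolayers were at 9.87 and 10.02 with treatment and at 10.08 and 10.06 without, so the treated spheroids were lowest by a wide margin and control spheroids stood just below the monolayers. The log2 fold-change in spheroids was −1.95 (SE 0.13, 95% interval −2.29 to −1.60, limma adjusted p = 0.00502), and between −2.11 and −1.79 in alternative fits. The spread was pooled over the 4 groups, and treated spheroids were the most spread (SD 0.23, against 0.02 to 0.11 in the others). Fits without a treated 3D array lose that spread and do not test the stability of the call. The other *IL1R1* probe set ran lower on the treated 3D arrays too (4.46 and 4.60 against 6.19 and 5.21 on the controls), and it was not called.

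The decoy *IL1R2* was at 7.64 and 7.62 on the treated and at 8.45 and 8.22 on the control 3D arrays, with monolayers between 7.95 and 8.20. Its log2 fold-change was −0.71 (SE 0.09, limma adjusted p = 0.0208), and the other *IL1R2* probe set gave −1.08 (adjusted p = 0.0221). The call was lost without either treated 2D array, the first control 3D array or either treated 3D array, with an adjusted p of up to 0.0934. *IL1RAP* was at 9.46 and 10.18 on the treated and at 8.62 and 8.60 on the control 3D arrays. The arrays of both groups did not overlap, but the log2 difference of 1.21 (SE 0.37, 95% interval 0.21 to 2.21) did not pass after adjustment (adjusted p = 0.151, or 0.0434 when dim probe sets were left out).

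In monolayers, the same treatment gave no call for any of the 10 genes by limma, against 0.121% of all genes called higher and 0.0759% lower. At an unadjusted p under 0.05, 1 gene was higher, *IL18*, and 0 were lower. *IL18* was at 11.58 and 11.81 on the treated and 11.30 and 11.28 on the control 2D arrays, a log2 difference of 0.40 (95% interval 0.09 to 0.71, adjusted p = 0.444). For *IL1A* the log2 difference was 1.43 (95% interval −0.70 to 3.56, adjusted p = 0.92) and for *IL1B* 0.62 (−0.72 to 1.95, adjusted p = 0.971). Both intervals are wide, and neither excludes a moderate rise. *IL1R1* differed by −0.13 on the log2 scale (−0.47 to 0.22), *IL1R2* by −0.15, and *IL33* was near background on all 4 monolayer arrays.

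**Figure D2:**
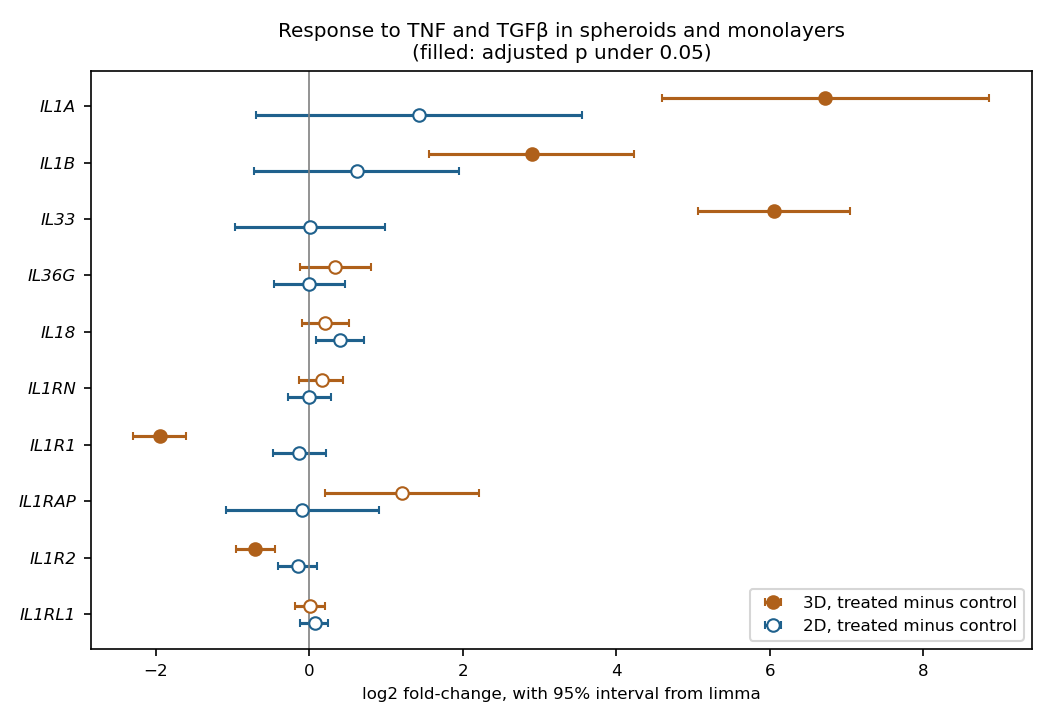
The log2 fold-change of each gene between treated and control cultures, in 3D and 2D, with its 95% interval from limma (2 arrays per group). The *IL33* values are fitted against groups near background and give no exact size. Filled points passed an adjusted p under 0.05, and these are *IL1A*, *IL1B*, *IL33*, *IL1R1* and *IL1R2* in 3D and no gene in 2D.

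The difference between the spheroid and the monolayer response was tested directly as an interaction. It passed for *IL33* (limma adjusted p = 0.0221), with a fitted difference of 6.05 on the log2 scale. Because *IL33* was near background in the other 3 groups, this value rests on the floor and gives no size of the difference. No lower bound can be given with both monolayer groups below the array medians. For the same reason the pooled spread understates that of treated spheroids, so the adjusted p of *IL33* is likely too small. The test also passed for *IL1R1*, whose response was lower in 3D (log2 difference −1.82, SE 0.18, 95% interval −2.31 to −1.34, adjusted p = 0.0304). That is 1 of 10 genes in each direction, where 1.31% of all genes were called higher and 1.93% lower. The other *IL1R1* probe set gave a log2 difference of −1.40 and was not called (limma adjusted p = 0.32). For *IL1A* the difference was 5.29 (95% interval 2.28 to 8.31, adjusted p = 0.114, or 0.0298 without dim probe sets), for *IL1B* 2.28 (0.40 to 4.17, adjusted p = 0.227), for *IL1R2* −0.55 (adjusted p = 0.146) and for *IL1RAP* 1.30 (adjusted p = 0.369). None of these 4 passed over all probe sets, so their responses are not shown to differ between culture types. The calls of *IL33* and *IL1R1* were lost when any array other than a treated 3D array was left out. For *IL33* the fits without a treated 3D array say nothing on stability, since their spread comes only from arrays at the floor. For *IL1R1* those fits lose the spread of its most spread group, so they do not test stability either.

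Without cytokines, the culture type separated *IL1RAP*, the co-receptor shared by interleukin-1, interleukin-33 and interleukin-36. It was at 8.62 and 8.60 in control spheroids and at 6.63 and 5.91 in control monolayers, which was 5.07-fold higher in spheroids (log2 fold-change 2.34, SE 0.37, 95% interval 1.34 to 3.35, limma adjusted p = 0.041). The second *IL1RAP* probe set moved the same way, from 5.07 and 5.50 to 6.92 and 7.19 (log2 fold-change 1.77, adjusted p = 0.0242). The call of the main probe set was lost whichever of the 8 arrays was left out (adjusted p 0.0651 to 0.174) and with only the 4 control arrays fitted (0.152). Of the 10 genes, 1 was higher and 0 lower by limma, where 5.76% and 4.9% of all genes were, and at an unadjusted p under 0.05 *IL1R1* alone was lower (log2 difference −0.48, adjusted p = 0.125, or 0.0435 without dim probe sets).

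Between the treated cultures, which share the treated spheroid arrays with the comparison above, 3 of 10 genes were higher in spheroids and 1 lower, beside 9.06% and 14.5% of all genes. *IL1A* was 82.2-fold higher (log2 fold-change 6.36, limma adjusted p = 0.0125) and *IL33* at least 58.4-fold higher (adjusted p = 0.0032). *IL1RAP* was 12.5-fold higher (log2 fold-change 3.64, adjusted p = 0.00823), and its treated monolayers were at 6.39 and 5.97, within the range of the control monolayers. *IL1R1* was 4.94-fold lower (log2 fold-change −2.30, adjusted p = 0.00276). *IL1B* (log2 difference 2.08, adjusted p = 0.0637) and *IL1R2* (−0.34, adjusted p = 0.097) did not pass, and both did when dim probe sets were left out (0.0145 and 0.0433). The second *IL1B* probe set passed (2.15, adjusted p = 0.0466). The *IL1A* call was lost without either treated 2D array or the first treated 3D array (up to 0.0715), and that of *IL1RAP* without the second treated 2D array (0.05). With only the 4 treated arrays fitted, the adjusted p of the 4 calls lay between 0.0736 and 0.0936.

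The order of the group means differed between these genes. *IL1RAP* was lowest in both monolayer groups, whose arrays overlapped, higher in control spheroids and highest in treated spheroids, and only the step from monolayers to spheroids passed. *IL1R1* ran the other way, with both monolayer groups and the control spheroids within 0.48 of each other on the log2 scale of the group means and treated spheroids far below. For *IL1A*, *IL1B* and *IL33* neither the control groups nor the monolayer groups were called different from each other, and both treated spheroid arrays lay above all others.

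Several of the 10 genes are neighbours, and in both stretches of chromosome 2 an adjacent pair was called in the same direction while most other genes were not called. From *IL1A* to *IL1RN*, RefSeq lists 9 protein-coding genes in the order *IL1A*, *IL1B*, *IL37*, *IL36G*, *IL36A*, *IL36B*, *IL36RN*, *IL1F10* and *IL1RN*. In spheroids *IL1A* and *IL1B* rose as above, *IL37* lay between 3.19 and 3.77 on all arrays, and *IL36A*, *IL36B* and *IL36RN* were near background in every group. *IL1F10*, whose product is interleukin-38, was the other called gene, at 2.61 and 2.67 on the treated against 2.41 on both control 3D arrays (adjusted p = 0.00971), a difference of 0.23 on the log2 scale close to background. The receptor stretch holds 6 genes, *IL1R2*, *IL1R1*, *IL1RL2*, *IL1RL1*, *IL18R1* and *IL18RAP*. The first 2 fell, *IL1RL2* and *IL18RAP* were near background in every group (*IL18RAP* was called higher there, by 0.05 on the log2 scale, adjusted p = 0.0325), and *IL18R1* lay between 3.38 and 4.51.

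**Figure D3:**
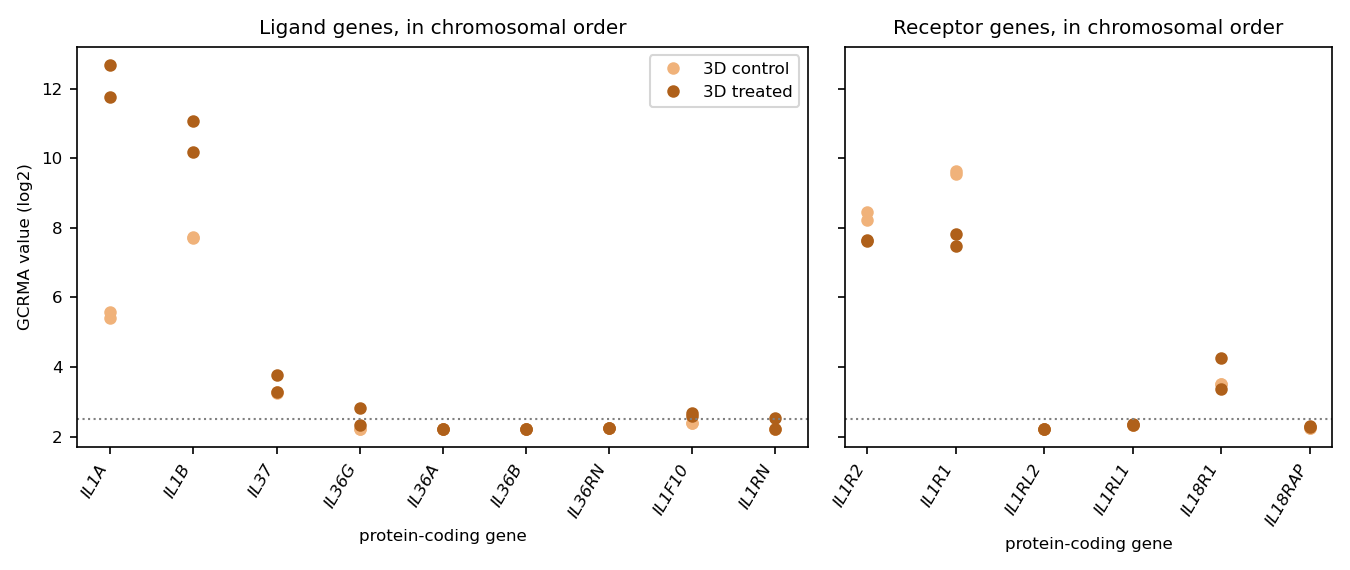
Log2 GCRMA values of the protein-coding genes of both chromosome 2 stretches, in RefSeq order, on the 2 control and the 2 treated 3D arrays. The dotted line is the highest array median. *IL1A* and *IL1B* at one end of the ligand stretch are higher with treatment, *IL1R2* and *IL1R1* at one end of the receptor stretch are lower, and most other genes lie near background.

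The rest of the pathway was read against the share of all genes called in treated spheroids, 5.53% higher and 10.8% lower. Of 12 other ligands, receptors and decoys of the family, 2 were called higher and 0 lower in treated spheroids (median log2 fold-change 0.03, beside 0.00 over all genes), and 7 of the 12 were near background in all groups. The called ones were *IL1F10* and *IL18RAP*, both described above and both at or close to background. At an unadjusted p under 0.05 again 2 were higher and 0 lower. For this list, the signalling list and the processing list, counts this small are not read as different from those shares.

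Of 16 measured genes that carry the signal from the receptor, 1 was higher and 2 were lower (median log2 fold-change 0.02). *IRAK2*, a kinase that is recruited with MYD88, was at 12.58 and 12.31 on the treated and at 10.55 and 10.30 on the control 3D arrays (log2 fold-change 2.02, SE 0.15, adjusted p = 0.00674). *PELI2* and *PELI3* encode Pellino ubiquitin ligases that act on IRAK proteins. *PELI2* fell by 1.52 on the log2 scale, from 8.65 and 8.59 to 7.14 and 7.06 (adjusted p = 0.00378). *PELI3* was 2-fold lower (adjusted p = 0.025), from 6.33 and 6.2 to 5.33 and 5.19, with control monolayers at 5.37 and 5.33. Without cytokines, 3 genes of this list were called higher in spheroids than in monolayers and 0 lower. *PELI3* was among them (log2 fold-change 0.91, limma adjusted p = 0.0411). In monolayers *IRAK2* was at 12.41 and 12.28 with treatment and at 10.95 and 10.71 without, which did not pass.

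Of 19 measured genes that mature or release interleukin-1 proteins, 2 rose and 2 fell (median 0.00), and 8 were near background in all groups, among them the sensors *NLRP3* and *AIM2*. *CASP1*, the protease that matures interleukin-1 beta and interleukin-18, was at 8.48 and 7.92 on the treated and at 5.72 and 5.52 on the control 3D arrays, 5.99-fold higher (log2 fold-change 2.58, SE 0.22, adjusted p = 0.00848). *PANX1*, which encodes the channel pannexin-1, was 3.51-fold higher (adjusted p = 0.0112). *CASP8*, an initiator caspase of cell death that can also cleave interleukin-1 beta, was 2.42-fold lower (adjusted p = 0.0103), and *CAPNS1*, the small subunit of the calpains that process interleukin-1 alpha, was 1.29-fold lower (adjusted p = 0.0152). Without cytokines, *CASP4* alone of this list was called, 3.08-fold higher in spheroids than in monolayers (adjusted p = 0.0146), and it is named here after its value was seen.

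Of 20 measured genes known to be induced by interleukin-1 and TNF, 13 rose and 0 fell in treated spheroids, with a median log2 fold-change of 1.65. At an unadjusted p under 0.05, 17 were higher and 1 was lower (log2 fold-change −1.52). Since TNF itself was added, these counts do not separate the action of interleukin-1 from that of TNF. The largest changes among them were in *MMP1*, a collagenase (log2 fold-change 8.82, adjusted p = 0.00123), and *MMP3*, stromelysin (at least 67.9-fold, adjusted p = 0.00453). *CSF3*, the granulocyte growth factor, followed (3.82, adjusted p = 0.00469), and then *TNFAIP3*, the NF-κB feedback inhibitor A20 (2.43, adjusted p = 0.00439). In monolayers, 0 of the 20 were called by limma, with a median of 0.66. At an unadjusted p under 0.05, 11 of the 20 were higher and 0 lower, and the share of all genes at that level is not given here. *TNFAIP3*, for one, was at 12.51 and 12.45 on the treated and at 10.87 and 10.68 on the control 2D arrays, so the groups did not overlap although the test did not pass.

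**Figure D4:**
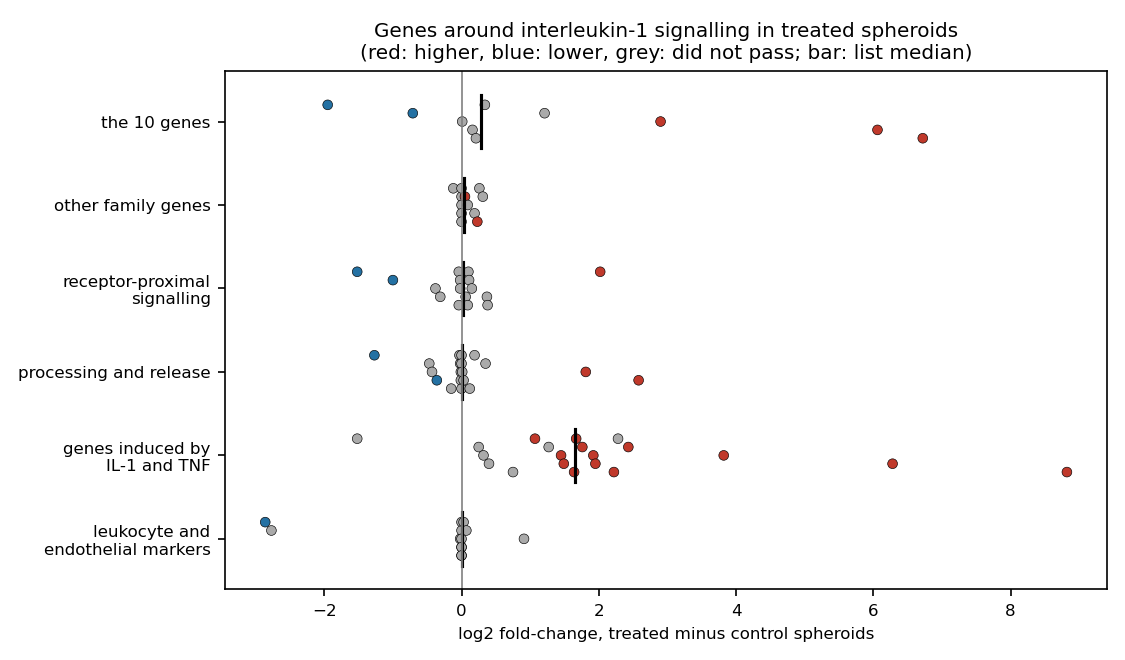
Log2 fold-change between treated and control spheroids for each measured gene of the 10 and of 5 lists, 1 point per gene, with the list median as a bar. Red and blue points passed higher and lower, and most points of the list induced by interleukin-1 and TNF (13 of 20) are red, while the other lists centre on 0.

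Markers of other interleukin-1 producing cells were examined beside these results. Of 13 measured leukocyte and endothelial genes, 8 were near background in all groups, among them *PTPRC*, *CD3E*, *MS4A1*, *CSF1R*, *CDH5* and *VWF*. The endothelial marker *PECAM1* (4.24 to 4.61) and the leukocyte marker *ITGAX* (2.88 to 3.01) were above background, and neither was called in treated spheroids. *CD14* was above background and lower in treated spheroids (6.05 and 5.28 against 8.68 and 8.36, adjusted p = 0.0477). *LYZ* was at 5.25 and 6.37 against 8.51 and 8.64 (adjusted p = 0.138). *ITGAM* ran the other way, at 6.06 and 6.35 in treated against 5.69 and 4.91 in control spheroids (adjusted p = 0.2). Summed on the linear scale, the list was at 238.2 and 269.4 on the treated 3D arrays and between 546.7 and 1110.9 on the other 6, and *CD14* and *LYZ* made up 43.8% to 88.5% of that sum. The epithelial markers *KRT8*, *KRT18*, *KRT19*, *EPCAM* and *CDH1* were above background on all arrays, A549 being an epithelial line, and 4 of 5 were lower in treated spheroids. The part of either marker list in the values of the 10 genes was not tested.

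The 3 genes of the family that varied most over the 8 arrays were *IL1A*, *IL33* and *IL1RAP*, and the genes with the most similar pattern were sought among 19774 others. Likeness was the root mean square difference, in log2 units, between values centred on their mean over the 8 arrays, given as a description with no test. Nearest to *IL1A* were *CCL5* (0.69), *SPOCK1* (0.74) and *PDGFB* (0.77). *CCL5*, a chemokine gene, was at 11.69 and 11.04 on the treated 3D arrays and, like *IL1A*, differed among the other 6, from 3.18 to 6.27. Nearest to *IL33* were *MMP3* (0.10), *SLN* (0.10) and *SLAMF9* (0.11), which were also near the floor on the arrays other than treated spheroids. *MMP3*, for example, was at 2.23 on those 6 arrays and at 9.09 and 7.95 on the treated 3D arrays, so much of this closeness comes from values at the floor. Nearest to *IL1RAP* were *MT1H* (0.28), *RARA* (0.30) and *MT1HL1* (0.32). *RARA*, a retinoic acid receptor gene, was at 4.98 and 5.25 in control monolayers, at 7.0 and 7.02 in control spheroids and at 7.98 and 8.69 in treated spheroids. *MT1H* and *MT1HL1* are near-identical metallothionein genes that a probe set may not separate, so both names are uncertain.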

How the data were processed

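RNA of 4 groups was hybridized to 8 Affymetrix U133 plus 2.0 arrays. The authors deposited log2 values from GCRMA (version not given in the sources used here), and the submitters' processing notes list limma 3.6.9. No further normalization was applied. The table has 54675 probe sets. Without 62 Affymetrix controls 54613 entered the tests, and 41091 of these name a single gene (19775 genes) in GEO's platform annotation.

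A model of 4 group means was estimated by limma 3.58.1 under R 4.3.3 (lmFit, then eBayes, all 8 arrays, 4 residual and 0.347 prior degrees of freedom), with Benjamini-Hochberg adjustment over all probe sets tested and a threshold of 0.05, the 5% of the study's methods. Intervals are 95% from the same fit. A probe set with no spread within groups gets no variance estimate, so all 15263 such probe sets were given a p of 1. They stayed in the adjustment, and 3 of them differed between groups. After this fit the script was also run on data simulated with the spread of that fit, and the outcome is not given here. Precision is limited by having 2 arrays in a group. For genes near background in all groups but treated spheroids, such as *IL33* and *MMP3*, the pooled spread includes groups at the floor. It understates the spread of treated spheroids, and the p-values of such genes are likely too small. A lower bound on a fold, where a group was near background, uses the medians of that group's arrays in place of its values. Figures were made by matplotlib 3.10.9 (Python 3.11.15).

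The 10 genes and the lists were chosen with earlier results of these data known. Besides the 10, the genes named are up to 4 called genes of each list with the largest changes in spheroids and the 3 genes closest in pattern to each of the 3 most variable of the 10. *CASP4*, neighbouring genes, cell type markers and genes near background in a list are named in addition. Replicate numbers were not taken to pair the arrays. Alternatives were an intensity trend, a replicate block, a filter on dim probe sets, quantile normalization, only the arrays compared, the probe set with the largest change, adjustment over 1 probe set per gene, and each array left out in turn. Where this left a lone array, its spread was taken to equal that of the other groups.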

Additional observations from a re-analysis of the deposited data

Results flagged for a closer look

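For *IL33* and *IL1R1* the response to TNF and TGFβ differed between spheroids and monolayers by a test of the difference itself (interaction in limma, all 8 arrays). For *IL33* the fitted log2 difference was 6.05 (adjusted p = 0.0221), which gives no size, since *IL33* was near background in all groups but treated spheroids. That adjusted p rests on a spread pooled with groups at the floor and is likely too small. The log2 response of *IL1R1* differed by −1.82 (adjusted p = 0.0304), with 3D arrays going from 9.64 and 9.54 to 7.81 and 7.48 and 2D arrays from 10.08 and 10.06 to 9.87 and 10.02. Both calls were lost when any array other than a treated 3D array was left out. The fits without a treated 3D array say nothing on the stability of the *IL33* call, since their spread for *IL33* comes only from arrays at the floor. Nor do they test that of the *IL1R1* call, since they lose the spread of treated spheroids, its most spread group. Groups of 2 arrays are too small to look for single arrays that stand apart.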

How the results depend on the processing

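In the 3D comparison 5 of the 10 genes passed, 6 with the filter on dim probe sets, and 0 did when only its 4 arrays were fitted, which leaves fewer samples for the spread, with 2 to 4 when 1 array was left out. The count in the 2D comparison was 0 under every alternative. For the difference of responses 2 passed, 3 with that filter and 0 with replicate number as a block (limma adjusted p = 0.0604 for *IL33* and 0.0763 for *IL1R1*), with 0 to 2 when 1 array was left out. For control spheroids against control monolayers 1 passed, 0 with the replicate block (0.0954 for *IL1RAP*), 2 with that filter (which left 7 of the 10 to test), 0 with only the arrays compared, and 0 whenever 1 array was left out. Between treated cultures 4 passed, 6 with that filter, 0 with only the arrays compared, and 2 to 4 when 1 array was left out. With the replicate block the 3D count was 5 and that between treated cultures 4. The numbers were not taken to pair the arrays, since deviations of arrays with the same number correlated at 0.282 between 2D control and 2D treated and between −0.015 and 0.089 elsewhere (27663 brighter probe sets). The cause of these changes in count was not tested. A tally of single differences follows, and it is not a measure of stability. Many alternatives leave the group means as they are, so they cannot change a sign. Values on the same side of the threshold also include differences that were not called in the main fit. Over 26 differences of single genes, 384 alternative values held 325 on the same side of the threshold, 52 that no longer passed, 7 that newly passed and 0 of opposite sign.

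The design has 2 arrays per group from 1 cell line. GCRMA values near the floor of 2.23 give no usable order, which limits *IL33* outside treated spheroids and *IL36G*, *IL1RN* and *IL1RL1* throughout. These are transcript levels, and protein, maturation and release were not measured on the arrays.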
